A study of Mus musculus with 2 samples.

Results

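Energy transfer and oxygen storage in the heart were followed through 9 genes, the cytosolic creatine kinases Ckm and Ckb, the mitochondrial creatine kinases Ckmt2 and Ckmt1, the creatine transporter Slc6a8, the ADP/ATP carriers Slc25a4 and Slc25a5, adenylate kinase 1 (Ak1) and myoglobin (Mb). They were chosen by symbol, and each symbol matched 1 of the 55536 gene entries. Hearts were taken at 2 months of age from 2 female B6CASTF1/J mice, the first-generation offspring of a cross between C57BL/6 and CAST. The animals, called animal 1 and animal 2, form 1 group with 1 total RNA library each (n = 2). Each library started from 300 ng of RNA, was depleted of ribosomal RNA and received ERCC spike-ins, synthetic transcripts added in known amounts. There is no treated or mutant group, so the comparisons are between paralogs, between the animals, and between the 2 quantifications deposited for each library. Counts of the maternal and paternal alleles were not analysed here, and how far reads of the CAST allele were lost against the mm10 reference was not tested.

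Heart muscle turns over its ATP quickly and keeps little of it. Creatine kinase moves the phosphate of ATP onto creatine and back, and its mitochondrial form sits between the inner membrane, where ADP/ATP carriers exchange the nucleotides, and the cytosol, where the muscle form works beside the ATPases. Adenylate kinase rebuilds ATP from ADP, the creatine transporter brings creatine into the cell, and myoglobin binds oxygen in the cytosol of cardiac and oxidative skeletal muscle fibres. Of each paralog pair 1 member is known as the muscle form (Ckm, Ckmt2, Slc25a4) and the other is known from brain and other tissues (Ckb), from brain and epithelia (Ckmt1) or from many proliferating and non-muscle cells (Slc25a5).

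Levels below are TPM, a relative abundance corrected for transcript length, taken from the deposited gene table (the first quantification) unless the second quantification, a separate transcript table summed per gene, is named. Reads assigned to genes numbered 41862417 for animal 1 and 41790009 for animal 2. The median TPM ratio of animal 1 over animal 2 was 0.857 over 16109 genes with TPM above 0 in both animals and at least 20 reads in all, so each SD of a TPM below includes a shift of scale shared by most genes. All 7 cardiomyocyte marker genes were above 1 TPM in both animals, with a summed level of 28153 TPM in animal 1 and 32412 TPM in animal 2. In bulk tissue, fewer cells of a type and less RNA per cell cannot be told apart.

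The 9 genes ranged from 0.63 TPM to 7802 TPM, and their order was the same in both animals and in both quantifications. Myoglobin stood first, followed by Slc25a4, Ckm, Ckmt2, Ak1, Slc25a5, Slc6a8, Ckb and Ckmt1. Between each pair of neighbours in this order the ranges over the 2 animals did not overlap, in either quantification. The closest neighbours were Slc25a4 and Ckm, with mean levels 1.28-fold apart in the first quantification and 1.09-fold apart in the second. The 9 genes together made up 11198 TPM in animal 1 and 12776 TPM in animal 2. That was 2.92% and 2.83% of the TPM of all 21938 nuclear protein-coding genes. In the second quantification the sums were 15518 and 15642 TPM, but 2.81% and 2.71% of the TPM of the nuclear protein-coding genes. TPM of the 2 quantifications are thus not on the same scale.

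**Figure D1:**
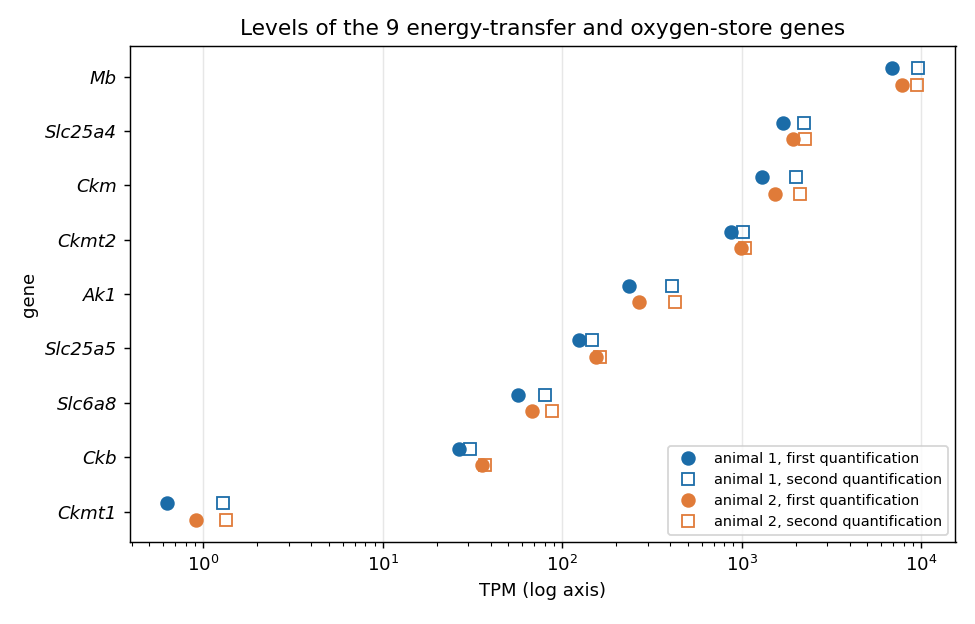
TPM of each gene on a log axis, with animal 1 above animal 2 in each row, filled circles for the first quantification and open squares for the second. Mb lies at 6903 and 7802 TPM in the first quantification, Ckmt1 at 0.63 and 0.91 TPM, and the order of the 9 genes is the same in all 4 sets of points.

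Myoglobin had 6903 TPM in animal 1 and 7802 TPM in animal 2, a mean of 7353 ± 635 TPM (SD, n = 2). It ranked at number 6 among the nuclear protein-coding genes by mean level. Its level was 5.34-fold that of Ckm in animal 1 and 5.09-fold in animal 2. In the second quantification Mb had 9605 TPM in animal 1 and 9538 TPM in animal 2. The TPM of Mb was thus higher in the second quantification, and there the 2 animals lay closer together. Both held for each of the 9 genes, so neither is particular to Mb.

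The other tissue globins were low beside it. Cytoglobin (Cygb), a globin known from fibroblasts, had 13.9 TPM in animal 1 and 18.7 TPM in animal 2, so the level of Mb was 495-fold and 417-fold that of Cygb. Neuroglobin (Ngb), the globin of neurons, had 1 read in animal 1 and 2 reads in animal 2.

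The muscle creatine kinase Ckm had 1293 TPM in animal 1 and 1531 TPM in animal 2, a mean of 1412 ± 168 TPM (SD, n = 2), and ranked at number 25. The brain form Ckb, which makes the same cytosolic enzyme activity in brain and many other tissues, had 26.7 TPM in animal 1 and 35.8 TPM in animal 2, a mean of 31.3 ± 6.41 TPM. Its rank was number 1847. Ckm was 48.4-fold higher than Ckb in animal 1 and 42.8-fold higher in animal 2, a log2 ratio of 5.51 ± 0.13 (SD, n = 2). The difference was therefore many times the spread between the animals. Ckm supplied 98.0% of the summed TPM of both genes in animal 1 and 97.7% in animal 2.

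Ckmt2, the sarcomeric mitochondrial creatine kinase, had 868 TPM in animal 1 and 989 TPM in animal 2, a mean of 929 ± 86.1 TPM (SD, n = 2). Ckmt1, the ubiquitous mitochondrial form, had 0.63 TPM in animal 1 and 0.91 TPM in animal 2. These Ckmt1 levels rested on 25 reads in animal 1 and 28 reads in animal 2. Ckmt2 was 1377-fold higher than Ckmt1 in animal 1, with an exact 95% interval from counting error alone of 933 to 2128. In animal 2 it was 1087-fold higher, with an interval of 752 to 1637. The mean log2 ratio was 10.26 ± 0.24 (SD, n = 2), the widest gap of the 3 pairs in both animals and both quantifications. At this depth its size is uncertain by at least the width of these intervals. The second quantification put it at 789-fold in animal 1, below the interval of that animal, and at 778-fold in animal 2.

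Slc25a4, the ADP/ATP carrier of heart and skeletal muscle, had 1691 TPM in animal 1 and 1927 TPM in animal 2, a mean of 1809 ± 167 TPM (SD, n = 2), and ranked at number 18. Slc25a5, the carrier of most other tissues, had 124 TPM in animal 1 and 155 TPM in animal 2, a mean of 139 ± 22.3 TPM. Slc25a4 was 13.7-fold higher in animal 1 and 12.4-fold higher in animal 2, a log2 ratio of 3.71 ± 0.10 (SD, n = 2). Of the 3 non-muscle paralogs Slc25a5 held the largest share of its pair, leaving 93.2% to Slc25a4 in animal 1 and 92.6% in animal 2. Summed over the pairs, the 3 muscle paralogs reached 3852 TPM in animal 1 and 4448 TPM in animal 2. The 3 non-muscle paralogs reached 151 TPM in animal 1 and 192 TPM in animal 2. With 2 animals an exact sign-flip test cannot give a p below 0.5, so no test of these ratios was made.

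**Figure D2:**
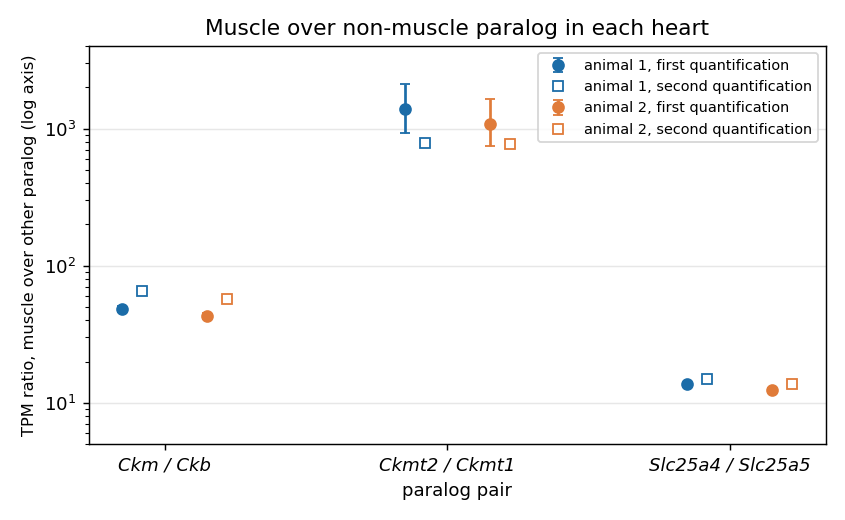
TPM ratio of the muscle over the non-muscle paralog on a log axis, with animal 1 left of animal 2 in each pair. Filled circles show the first quantification with exact 95% counting intervals and open squares the second, and Ckmt2 over Ckmt1 stands at 1377 and 1087 against 13.7 and 12.4 for Slc25a4 over Slc25a5.

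A library of short reads can tell paralogs apart only where their sequences differ. The coding sequences of Ckm and Ckb, 1143 bases each, were 75.9% identical. Those of Slc25a4 and Slc25a5, 894 bases each, were 77.4% identical, and those of Ckmt2 and Ckmt1, with 1257 and 1254 bases, were 71.6% identical. The following 90-base windows from the GENCODE M21 transcripts surround the longest run of identical bases in each aligned pair, because there the paralogs are hardest to separate. They run 5′ to 3′ on the coding strand, and capitals mark the bases that differ within a pair.
Ckm, coding bases 53 to 142: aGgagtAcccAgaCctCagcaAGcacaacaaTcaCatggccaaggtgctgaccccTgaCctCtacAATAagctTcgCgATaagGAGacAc
Ckb, coding bases 53 to 142: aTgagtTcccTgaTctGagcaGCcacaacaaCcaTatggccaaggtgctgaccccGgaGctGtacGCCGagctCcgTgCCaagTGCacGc
Ckmt2, coding bases 866 to 955: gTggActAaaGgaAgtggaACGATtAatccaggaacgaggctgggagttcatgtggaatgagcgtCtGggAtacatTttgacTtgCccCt
Ckmt1, coding bases 866 to 955: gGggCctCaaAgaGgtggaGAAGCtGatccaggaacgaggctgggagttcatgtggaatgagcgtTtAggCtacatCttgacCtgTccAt
Slc25a4, coding bases 287 to 376: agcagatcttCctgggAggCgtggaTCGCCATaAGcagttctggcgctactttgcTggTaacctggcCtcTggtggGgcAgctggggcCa
Slc25a5, coding bases 287 to 376: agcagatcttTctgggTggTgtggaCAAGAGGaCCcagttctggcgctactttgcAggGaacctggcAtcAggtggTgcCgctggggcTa
Ckm and Ckb differed at 24 of these 90 bases, Slc25a4 and Slc25a5 at 19, and Ckmt2 and Ckmt1 at 18. The longest identical run was 20 bases in Ckm and Ckb and in Slc25a4 and Slc25a5, and 39 bases in Ckmt2 and Ckmt1. Neither Ckm and Ckb nor Slc25a4 and Slc25a5 shared any run of 31 coding bases.

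Slc25a5 and Ckb shared more sequence with pseudogenes than with their muscle paralogs, while Ckmt1 shared words only with Ckmt2. Of the distinct 31-base words in the transcripts of Slc25a5, 49.4% also occurred in other genes, among them 13 pseudogenes, and of those of Ckb 17.5% did, in 3 pseudogenes. Words were compared in the sense direction only. The words of Slc25a4 and of Mb occurred in no other annotated transcript, and 0.482% of those of Ckm did. Few reads were assigned to the copies, however. The 13 pseudogenes that share sequence with Slc25a5 held 8 reads in all in animal 1 and 14 in animal 2, against 5210 and 5882 reads of Slc25a5 itself. Ckb had 1371 reads in animal 1 and 1656 in animal 2, and Gm12892, a processed pseudogene with 504 of the words of Ckb, had 19 and 24 reads. The named copies Ckb-ps1, Ckb-ps2 and Slc25a5-ps had no reads in either animal. The levels of Ckb and Slc25a5 are uncertain by as many reads as were placed on the wrong copy, and the tables do not show that number. The deposited posterior SD of the count, a measure of how far reads could be reassigned, was 2.46 and 2.78 reads for Ckb, 1.14 and 1.56 reads for Slc25a5, and 0 for the other 7 genes.

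The sequence just upstream of the gene starts was set beside these levels for the creatine kinases. RefSeq promoter windows on GRCm38.p6, 250 bases before to 50 after a start, were found for 8 of the 9 genes, Slc6a8 excepted, and only the stretch before any annotated exon is printed. Ckm lies on the plus strand at chr7:19410844-19411024 and Ckb on the minus strand at chr12:111672339-111672588. Ckmt2 lies on the minus strand at chr13:91876886-91877135, and Ckmt1 on the plus strand at chr2:121357526-121357713. Both strands were searched for TATAAA (the TATA box), CANNTG (the E-box of muscle regulatory factors), GGGCGG (the GC box), TNAAGGTCA (the site known for oestrogen-related receptors) and the MEF2 motif. Capitals mark the matches.
Ckm: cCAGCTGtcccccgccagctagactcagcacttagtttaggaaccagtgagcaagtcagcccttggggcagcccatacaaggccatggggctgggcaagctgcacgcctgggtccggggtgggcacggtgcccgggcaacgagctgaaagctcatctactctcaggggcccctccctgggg
Ckb: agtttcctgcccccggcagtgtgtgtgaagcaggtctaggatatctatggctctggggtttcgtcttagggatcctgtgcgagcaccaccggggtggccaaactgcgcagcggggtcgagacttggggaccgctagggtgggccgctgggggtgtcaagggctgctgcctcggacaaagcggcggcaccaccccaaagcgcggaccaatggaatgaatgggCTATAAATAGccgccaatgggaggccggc
Ckmt2: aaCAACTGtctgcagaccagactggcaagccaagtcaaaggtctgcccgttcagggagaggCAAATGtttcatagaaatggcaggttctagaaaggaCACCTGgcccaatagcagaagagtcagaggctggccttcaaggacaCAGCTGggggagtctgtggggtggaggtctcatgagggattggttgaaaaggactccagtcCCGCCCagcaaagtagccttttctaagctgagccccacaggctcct
Ckmt1: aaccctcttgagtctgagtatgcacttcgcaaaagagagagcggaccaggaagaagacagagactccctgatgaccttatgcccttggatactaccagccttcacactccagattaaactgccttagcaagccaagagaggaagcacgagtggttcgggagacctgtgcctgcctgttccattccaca
The Ckm stretch held 1 CANNTG, at position -249 from the RefSeq start, and no other motif. Ckb, the low member of its pair, held 1 TATAAA at position -28, inside a match to the MEF2 motif that begins at position -29. Ckmt2 held 4 CANNTG and 1 GGGCGG. The printed stretch of Ckmt1, cut at the first annotated exon, held no match, but its whole window of 300 bases held 1 TATAAA and 1 CANNTG. Another RefSeq window of Ckmt1, around the start at base 121358610, held no match in its 300 bases and is not printed. The whole windows of Ckm, Ckb and Ckmt2 held the same counts as their printed stretches. Over all 32851 windows of 300 bases, TATAAA occurred in 13.6%, CANNTG in 72.3%, GGGCGG in 35.7%, TNAAGGTCA in 1.28% and the MEF2 motif in 3.19%. An E-box match is therefore common in such windows. The whole window had 22 CpG dinucleotides in Ckb and 7 in Ckm, where the median of all windows was 7. These matches describe the letters of the windows and do not show binding.

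The creatine transporter Slc6a8 had 56.8 TPM in animal 1 and 68.1 TPM in animal 2, a mean of 62.5 ± 7.98 TPM (SD, n = 2). The enzymes that make creatine were far lower. Gamt, which methylates guanidinoacetate to creatine, had 3.49 TPM in animal 1 and 3.71 TPM in animal 2, so the level of Slc6a8 was 16.3-fold and 18.4-fold that of Gamt. Gatm, which makes guanidinoacetate, averaged 1.28 ± 0.10 TPM (SD, n = 2). Slc16a12, a second transporter of creatine, averaged 0.69 ± 0.25 TPM.

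Ak1, the cytosolic adenylate kinase, had 235 TPM in animal 1 and 266 TPM in animal 2, a mean of 251 ± 22.2 TPM (SD, n = 2). The second quantification put it 1.66-fold higher on average, at 410.4 TPM in animal 1 and 423 TPM in animal 2. Mean TPM was higher there for each of the 9 genes, from 1.08-fold for Ckb to 1.71-fold for Ckmt1. The non-coding transcript of Ak1 had 3.07 and 4.94 TPM in the first quantification, and 176 and 183 TPM in the second. Of 8 other adenylate kinase genes, 4 were at 1 TPM or more in both animals. Among them were Ak3, the GTP-using enzyme of the mitochondrial matrix, at 30.9 and 37.8 TPM in animals 1 and 2, Ak6 at 19.5 and 24.2 TPM, and Ak4 at 13.1 and 14.1 TPM. The level of Ak1 was 7.61-fold that of Ak3 in animal 1 and 7.06-fold in animal 2, and 10.7-fold and 10.5-fold in the second quantification.

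The carriers and pores that serve the same exchange were abundant. The phosphate carrier Slc25a3 averaged 927 ± 106 TPM (SD, n = 2), and the level of Slc25a4 was 1.99-fold that of Slc25a3 in animal 1 and 1.92-fold in animal 2. Of the outer membrane pores, Vdac1 averaged 404 ± 42.9 TPM, Vdac2 180.1 ± 19.5 TPM and Vdac3 151 ± 13.5 TPM. Among the other nucleotide kinases, all 7 listed genes were at 1 TPM or more in both animals, led by the nucleoside diphosphate kinase Nme2 at 379 ± 45.1 TPM and the guanylate kinase Guk1 at 39.1 ± 5.40 TPM. Of 12 genes of AMP breakdown and the AMP-activated kinase, 10 were at 1 TPM or more. The kinase subunits Prkag1, at 42.4 ± 4.53 TPM, Prkaa2, at 31.3 ± 3.28 TPM, and Prkab1, at 21.9 ± 0.44 TPM, were the highest of them, with the nucleotidase Nt5c1a at 19.6 TPM in animal 1 and 22.4 TPM in animal 2. Over the 6 lists, 32 of 42 genes were at 1 TPM or more in both animals.

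The share of the highest transcript differed by under 3 percentage points between the animals for each gene but Ckmt1, while the 2 quantifications placed several transcripts differently. The transcript with the highest mean share over the 2 animals was the same in both quantifications for 6 of the 9 genes and differed for Mb, Ak1 and Ckmt1. Ckmt2 has 1 annotated transcript. Ckb, Slc25a4 and Slc25a5 each gave over 90% of their level to 1 coding transcript in each animal and each quantification. Coordinates below are on mm10 with the GENCODE M21 annotation.

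Myoglobin has 6 annotated transcripts, all coding, and 3 distinct coding sequences among them. Transcripts that begin at the distal start, at bases 77050569 to 77050670 of chromosome 15, held 36.9% of its level in animal 1 and 36.5% in animal 2. The second quantification gave 34.9% and 37.0%. This start lies 24444 bases upstream of the next one, within Apol6, a gene on the opposite strand that had 18 reads in animal 1 and 25 in animal 2. The distal share thus lay between 34.9% and 37.0% in both animals and both quantifications. Its split between the 2 transcripts of this start did not stay the same. Mb-202 held all of it in the first quantification, and 22.8% of the Mb level in animal 1 and 23.3% in animal 2 in the second. Mb-205 held no share in the first, and 12.1% and 13.7% in the second.

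The split of the remaining share of Mb depended on the quantification as well. Mb-203 and Mb-201, which begin at bases 77022727 to 77022787, held 30.4% in animal 1 and 29.7% in animal 2 in the first quantification, and 63.8% and 60.5% in the second. Mb-206, which begins at base 77021963, held 32.7% and 33.8% in the first, and 1.28% and 2.55% in the second. Its annotated coding length is 297 bases, against 462 bases in Mb-201, Mb-202, Mb-203 and Mb-205. So the first quantification gave about as much to the shorter reading frame as to the proximal start, and the second gave it little. The printed sequence is the RefSeq window before the proximal start, on the minus strand at chr15:77022788-77023037, shown because this start carried most of the level in the second quantification. Capitals mark its 2 CANNTG matches, and no other searched motif matched.
Mb: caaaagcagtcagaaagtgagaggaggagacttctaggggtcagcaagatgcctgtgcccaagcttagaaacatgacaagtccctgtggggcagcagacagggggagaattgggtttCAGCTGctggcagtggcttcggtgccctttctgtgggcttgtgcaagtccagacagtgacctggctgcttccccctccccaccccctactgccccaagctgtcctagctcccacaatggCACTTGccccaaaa
The RefSeq window of the distal start overlaps annotated exons and is not printed.

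Ckm has 3 annotated transcripts. Ckm-201, with a coding length of 936 bases, held 62.1% of the level in animal 1 and 62.3% in animal 2, and 54.0% and 54.2% in the second quantification. Ckm-202, a transcript of 671 bases with no annotated coding sequence, begins at base 19404776 of chromosome 7, which is 6249 bases upstream of the next start. It held 34.5% in animal 1 and 34.3% in animal 2, and 45.9% and 45.7% in the second quantification. Ckm-203, with a coding length of 1143 bases, held 3.39% and 3.36%, and 0.117% and 0.122% in the second quantification. Both quantifications therefore gave 34.3% or more of the Ckm level to a form without a coding sequence.

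An exon of 212 bases, chr7:19414119-19414330, is annotated in Ckm-202 and Ckm-203 and missing from Ckm-201. No annotated transcript joins it to the last exon of 377 bases. How reads of such a form would be split among the annotated transcripts was not tested. The shares of the Ckm transcripts and the coding levels below depend on that split. Only 171 bases of Ckm-202 occur in no other Ckm transcript, so its share rests on few distinguishing bases. Ckm-201 has 0 such bases. Ckm-203 has 1295, and its last exon is annotated with 1634 bases, against 377 in Ckm-201. The coding length of 1143 bases in Ckm-203 is also that of Ckb. Which of the 2 coding lengths of Ckm these hearts used was not tested. Coding transcripts of Ckm alone came to 847 TPM in animal 1 and 1006 TPM in animal 2, set against 868 TPM and 989 TPM of Ckmt2. On that count, chosen after the values were seen, the order of Ckm and Ckmt2 was not the same in both animals, and in the second quantification Ckm was above Ckmt2 in both, at 1084 and 1144 TPM against 1022 and 1038 TPM. The log2 ratio of Ckm over Ckb was 4.91 on coding transcripts, against 5.51 on all transcripts.

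Ak1 showed the largest disagreement. Ak1-202, which begins at base 32625437 of chromosome 2, held 88.8% of its level in animal 1 and 91.4% in animal 2, but 0.136% and 0.0193% in the second quantification. That quantification gave 75.9% in animal 1 and 80.1% in animal 2 to Ak1-201 and a retained-intron transcript, which begin at bases 32629504 to 32629521. The same start held 1.62% and 1.85% in the first quantification. Only 1 base of Ak1-202 occurs in no other Ak1 transcript. Coding transcripts of Ak1 came to 232 TPM in animal 1 and 261 TPM in animal 2 in the first quantification. They came to 235 and 240.2 TPM in the second. Their share of the Ak1 level was 98.7% and 98.1% in the first, but 57.2% and 56.7% in the second. TPM of the 2 quantifications are not on the same scale, so the similar TPM do not show an equal coding level.

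Slc6a8-201 held 54.6% of the creatine transporter in animal 1 and 55.3% in animal 2, against 28.8% and 29.3% in the second quantification. Slc6a8 has 13 annotated transcripts. Coding transcripts together held 91.8% in animal 1 and 94.4% in animal 2, and 90.3% and 91.0% in the second quantification. For Ckmt1, Ckmt1-202 held 67.2% in animal 1 and 47.8% in animal 2, shares that rest on 23 and 20 reads.

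**Figure D3:**
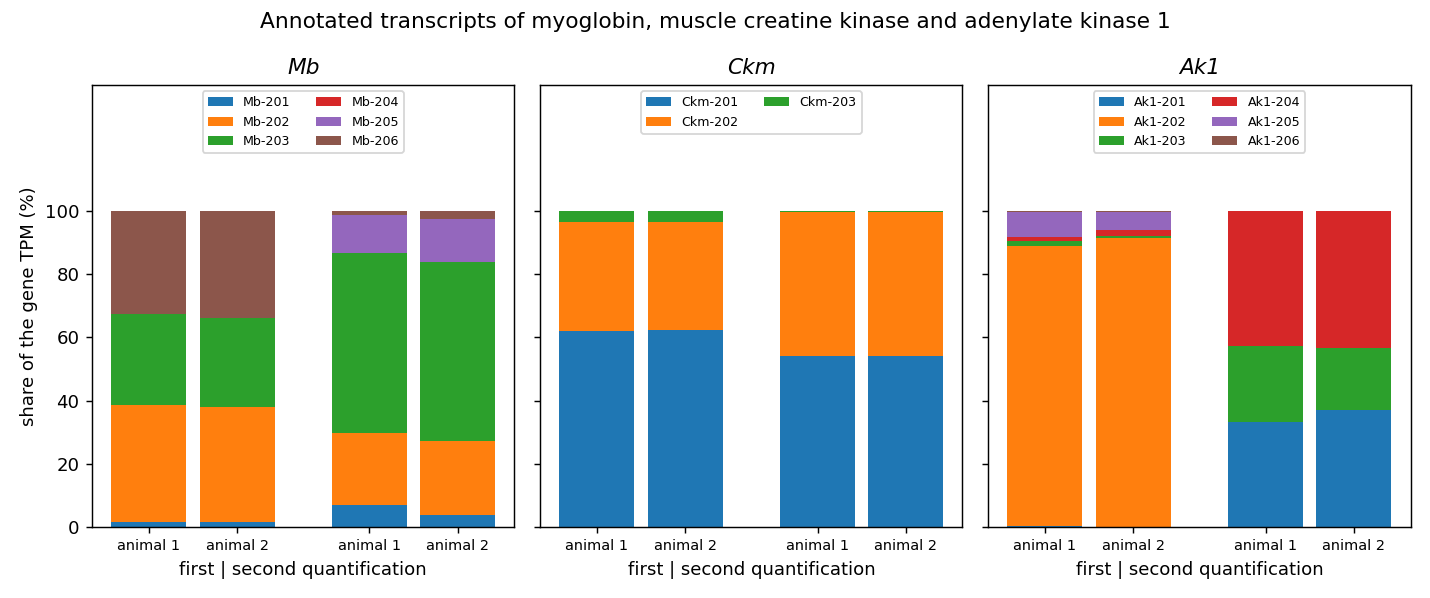
Share of each annotated transcript in the TPM of Mb, Ckm and Ak1, as stacked bars in percent, with animal 1 left of animal 2 for the first quantification and then for the second. The shares of the 2 animals differ by under 5 percentage points for each transcript within a quantification, while Mb-206 holds 32.7% and 33.8% in the first and 1.28% and 2.55% in the second, and Ak1-202 nearly disappears in the second.

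The animals were compared by the ratio of reads of animal 1 over animal 2, scaled by the trimmed mean of M values (TMM), with exact 95% binomial intervals that cover counting error only. None of the 9 genes passed 1.2-fold in either direction, where 24.7% of all 16133 genes with at least 20 reads did. Among 4442 nuclear protein-coding genes with at least 2000 reads in all, which include 8 of the 9, 4.12% passed 1.2-fold. A count of 0 of 8 is near that background.

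Within this range 3 of the genes lay above 1 by more than counting error on the TMM scale and 3 lay below, but the side of the first 3 depended on the scaling. The ratio was 1.04 (95% interval 1.03 to 1.05) for Mb, 1.03 (1.02 to 1.04) for Slc25a4 and 1.03 (1.02 to 1.04) for Ckmt2, and on total reads without TMM these 3 fell below 1, at 0.985, 0.976 and 0.974. It was 0.873 (0.812 to 0.939) for Ckb, 0.934 (0.900 to 0.970) for Slc25a5 and 0.949 (0.919 to 0.981) for Slc6a8, and these 3 stayed below 1 under each scaling tried. The intervals of Ckm, Ak1 and Ckmt1 held 1. Intervals below 1 were found in 19.9% of the 4442 genes, and intervals above 1 in 12.7%. With 3 of 8 on each side, these counts say little beyond that background. The ratio of muscle over non-muscle paralog was higher in animal 1 than in animal 2 in each of the 3 pairs, by 0.18, 0.34 and 0.14 on the log2 scale for Ckm over Ckb, Ckmt2 over Ckmt1 and Slc25a4 over Slc25a5. For Ckmt2 over Ckmt1 the counting intervals of the animals overlap widely, and the second quantification gave log2 ratios of 9.62 in animal 1 and 9.60 in animal 2.

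Markers of 4 other cell types lay below 1 as well. Of the 5 endothelial, 5 fibroblast, 5 mural and smooth muscle and 5 macrophage genes, each had a ratio below 1. The median log2 ratio was 0.0024 over all 16133 genes with at least 20 reads, and -0.0076 over the 4442 genes with at least 2000 reads. The share of all genes with a ratio below 1 was not counted. Summed reads of these 4 lists gave ratios of 0.915, 0.850, 0.819 and 0.854, against 1.03 for the 7 cardiomyocyte genes. Of those 7, 1 lay below 1, Actc1 at 0.933 (0.927 to 0.939), close to the ratio of Slc25a5. The summed levels were 321 TPM in animal 1 and 408 TPM in animal 2 for the endothelial list, and 242 and 325 TPM for the fibroblast list. They were 191 and 267 TPM for the mural list, and 52.6 and 70.4 TPM for the macrophage list. No gene of these 4 lists was at 0. The part of these cells in the lower ratios of Ckb, Slc25a5 and Slc6a8 was not tested. Of 3 adipocyte genes, 2 had enough reads, and their summed level was 4.44 TPM in animal 1 and 10.7 TPM in animal 2. The 3 brown adipocyte genes summed to 19.6 and 25.3 TPM.

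Skeletal muscle also expresses Ckm, Ak1 and Mb, so its markers were read as well. Of 7 skeletal muscle genes, 2 were at 1 TPM or more in both animals, and Acta1, which heart muscle also expresses, held 103 of the summed 104 TPM in animal 1 and 129 of 131 TPM in animal 2. The fast myosin genes were near 0, with 22 reads of Myh1 in animal 1 and 1 in animal 2, 18 and 0 reads of Myh2, and 10 and 4 reads of Myh4. Ckm had 47618 reads in animal 1 and 50730 in animal 2. Of 5 genes of Schwann cells and nerve, a tissue in which Ckb is known, 2 were at 1 TPM or more in both animals, and the list summed to 3.88 TPM in animal 1 and 4.55 TPM in animal 2. The 3 of them with at least 20 reads had a summed read ratio of 1.01, with 2 of the 3 below 1. The 3 erythroid genes summed to 29674 TPM in animal 1 and 34706 TPM in animal 2, above the level of Mb. Their summed read ratio was 1.00.

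**Figure D4:**
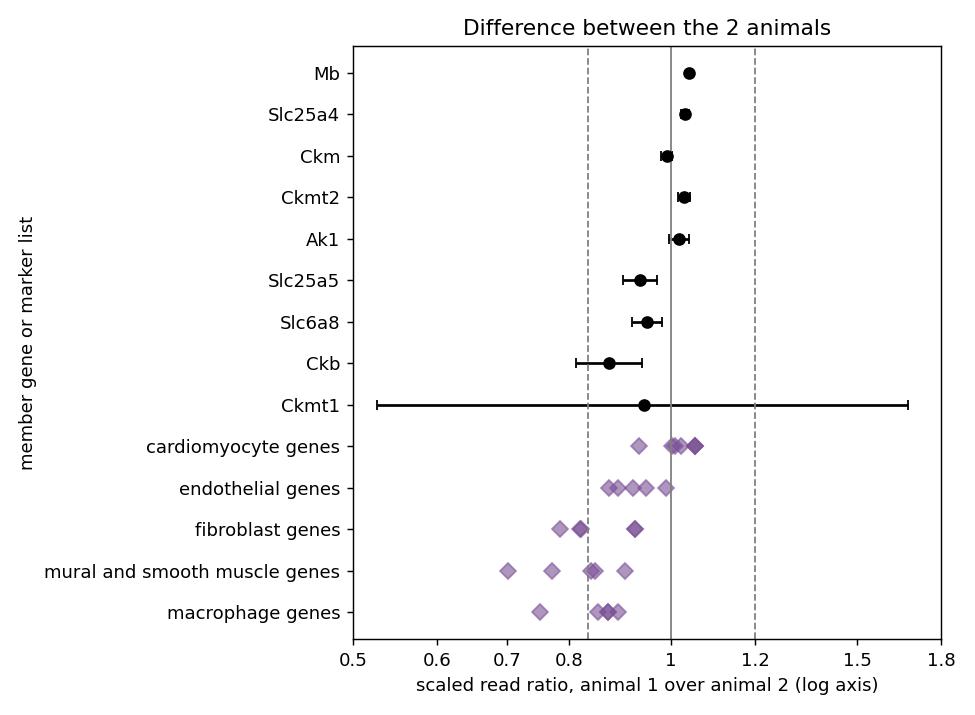
Scaled read ratio of animal 1 over animal 2 on a log axis, with points and exact 95% counting intervals for the 9 genes and 1 diamond per gene for 5 marker lists. The solid line marks 1 and the dashed lines mark 1.2-fold. Mb, Slc25a4 and Ckmt2 lie just above 1 (below 1 on total reads or deposited TPM). Ckb, Slc25a5 and Slc6a8 lie below it, as do the endothelial, fibroblast, mural and macrophage genes and the cardiomyocyte gene Actc1.

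Of the 42 genes in the 6 related lists, 34 had at least 20 reads. Only Nme1, another nucleoside diphosphate kinase, passed 1.2-fold, with a ratio of 0.821 (0.689 to 0.977), and it is named because it was the only one. None was higher in animal 1 past that fold, and none passed 2-fold. Over all 16133 genes 11.3% were at least 1.2-fold lower in animal 1, 13.4% at least 1.2-fold higher and 2.73% past 2-fold in either direction. Ampd1 and Slc25a41, which are on these lists, had no reads in either animal, which allows up to 0.0717 CPM in animal 1 and 0.0718 CPM in animal 2.

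Genes on the opposite strand overlap 4 of the 9, counted over whole gene spans with introns, and whether counting used strand is not known. Reads from bases that lie in exons of both genes of a pair may therefore not be told apart. Gm49540 and Apol6, which overlap Mb, had 12 and 18 reads in animal 1 and 19 and 25 in animal 2, against 222354 and 225421 reads of Mb. A930016O22Rik, which overlaps Ckm, had 1 read in each animal. Strc, which overlaps Ckmt1, and 1700119I11Rik, which overlaps Ckmt2, had none.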

How the data were processed

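Expected counts in the gene table and its transcript table are reads estimated for each feature and not normalised, per the file headers. They come from alignments to the transcriptome of mm10, per the deposited readme, with annotation M21. TPM, set to the total of each whole table, and the percent share of each transcript are the authors' deposited values. The other transcript table gives estimated counts with TPM that the deposited readme traces to a read file. Tool names, versions and the use of strand in counting were not given in the sources used here.

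Depth was 42113557 total reads in animal 1 and 42050214 in animal 2, of which spike-ins and entries without a gene identifier held 0.596% and 0.619%. They stayed out of library sizes. The limit a count of 0 allows is 3 reads. Without molecular identifiers, such limits and all intervals reflect counting error alone.

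Expected counts were rounded to whole numbers, genes with at least 20 reads over both animals were kept, and libraries were scaled by TMM in edgeR 4.0.16 (R 4.3.3), which was tested on simulated data. With 1 group no test was run across genes. Transcript starts within 150 bases of each other were joined. Coding sequences were aligned with Biopython 1.88. DESeq2 1.42.0 size factors, total reads, no filter, posterior mean TPM, a pseudocount of 1, TPM rescaled over nuclear protein-coding genes, the second quantification and each animal alone were the alternatives. The members, gene lists and markers were chosen with earlier results of these data known. Named were the 9 members, up to 4 genes per list by mean TPM, any list gene past 2-fold, and pseudogenes that carry a member's symbol. Of the genes this rule names, 1 is not reported here. Other genes named were chosen after their values were seen.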

Additional observations from a re-analysis of the deposited data

How the results depend on the processing

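Each paralog ratio kept its direction under all alternatives run for it. The second quantification gave mean log2 ratios of 5.93 for Ckm over Ckb, 9.61 for Ckmt2 over Ckmt1 and 3.85 for Slc25a4 over Slc25a5. Coding transcripts alone, added after the data were seen, gave 4.91 and 11.07 for the first 2 pairs. Ckmt2 over Ckmt1 was 9.46 on posterior mean TPM and 9.04 with a pseudocount of 1, which weighs on Ckmt1 because its level is under 1 TPM. With 1 animal left out the ratios ranged from 5.42 to 5.60, from 10.09 to 10.43 and from 3.64 to 3.78. The summed level of the 9 genes was 15580.2 TPM in the second quantification, 28759 TPM when rescaled over nuclear protein-coding genes, and 11198 to 12776 TPM with 1 animal left out. The count of genes past 1.2-fold between animals, 0 on TMM-scaled reads, was 1 on total reads (Ckb), 1 in the second quantification (Ckmt1) and 3 on deposited TPM (Ckb, Ckmt1 and Slc25a5), a scale on which the median log2 ratio of all genes was -0.22. Read ratios of animal 1 over animal 2 that lay above 1 all turned below it on total reads and on deposited TPM. For Mb, Slc25a4 and Ckmt2 they were 0.985, 0.976 and 0.974 on total reads, and 0.885, 0.878 and 0.877 on deposited TPM. For Ak1, whose interval held 1, the ratio went from 1.02 to 0.963 on total reads and 0.882 on deposited TPM. The log2 ratio of Ckm over Ckmt2 turned to -0.0054 on coding transcripts, against 0.60 on all. The cause of these differences between quantifications was not tested. No paired analysis was possible because there is only 1 group. Depth limits the values of Ckmt1, which rest on 25 and 28 reads.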
